A study of Mus musculus with 12 samples.

Results

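The copy number of 9 genes of the p53 network was read from the exome data of a pair of murine pancreatic ductal adenocarcinoma (PDAC) lines. The genes are the p53 family (Trp53, Trp63, Trp73), the Mdm genes (Mdm2, Mdm4) and 4 effectors of p53 (Bax, Bbc3, Pmaip1, Fas). They were taken by name from the gene column of the segment tables, and 9 of 9 were found in both lines, among 20947 autosomal genes that lie in a single segment in each line. The libraries WES-15376T and WES-14837T hold genomic DNA of the primary lines 15376T and 14837T, 1 library each. Both lines came from C57BL/6 mice that carried p48-Cre, ROSA_rtTA and p53 L/+ among their alleles, and both are labelled WT. Neither library is labelled as a knockout of Lin28b. The mice differ from a normal mouse at Trp53 itself, since 1 allele was floxed. Cre was driven by the promoter of p48 (Ptf1a) in the pancreas, and the culture medium contained doxycycline, the drug that rtTA responds to. The age and sex of the mice are not given in the sources used here, and DNA carries no marker that would test the labelled cell type. RNA-seq of these lines and the exome of wild-type tail were not analysed here.

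p53, encoded by Trp53, is a transcription factor that halts the cell cycle or triggers apoptosis after DNA damage, and its loss is common in PDAC. Mdm2 is the ubiquitin ligase that marks p53 for degradation, and Mdm4 is its partner that blocks p53 activity. Bax, Bbc3 (PUMA) and Pmaip1 (Noxa) are proteins of the Bcl2 family that p53 induces to open the mitochondrial path to cell death, and Fas is a death receptor at the cell surface. p63 and p73 are related transcription factors that bind the same kind of site.

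As a look at the DNA through which this network is wired, promoter windows of 300 bases in RefSeq (GRCm38.p6, from 250 bases before to 50 after a gene's start) were searched for the p53 consensus half-site, whose pattern reads the same on both strands. The tables gave 11 windows for 7 of the 9 genes, and 3 of the 11 windows, of 3 genes, held a half-site, which is shown in capitals with 10 bases on each side, written 5′ to 3′ on the gene's strand.
Trp53: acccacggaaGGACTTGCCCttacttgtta
Mdm2: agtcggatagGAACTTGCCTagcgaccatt
Bax: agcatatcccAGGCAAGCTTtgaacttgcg
The stretches lie at chr11:69580274-69580303 on the plus strand (Trp53), at chr10:117710925-117710954 on the minus strand (Mdm2) and at chr7:45467080-45467109 on the minus strand (Bax). Half-sites were present in 8.36% of all 32851 windows, and in at least 1 window of 9.55% of 27025 genes. A match of letters is not a binding site, and nothing in the copy-number values was read from it.

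The copy number of a gene is here that of its segment, a run of neighboring capture bins with a common coverage. Each segment has a log2 ratio of coverage to a reference that the sources used here do not name, an integer copy number called by the authors, a mean read depth and a number of bins. It also has a BAF, the share of reads at variant sites that carry the allele other than the reference. The authors' calls matched log2 thresholds of -0.25 for a loss and 0.2 for a gain. A call of 1 copy thus stands for a range of log2, and the ploidy of the lines was not determined here. The mean depth was 43.4 in 15376T and 47.5 in 14837T. With 1 library per line there is no replicate error and no test between the lines, so a yardstick was taken from the autosomal segments with a call of 2 copies, namely the SD of their log2. It was 0.090 in 15376T (103 segments) and 0.095 in 14837T (96 segments), or 0.13 for a difference between the lines. These segments lie between the thresholds by their call, and each counted once whatever its number of bins. The yardstick is therefore a scale for reading the values and not the error of any of them. A culture is measured as a whole, so a change in every cell and a larger change in a part of the cells cannot be told apart.

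More of the 9 genes were lost than gained. In 15376T, 5 of 9 were called at 1 copy (Trp63, Trp73, Bax, Bbc3 and Pmaip1) and 0 were called gained, where 30.1% of all autosomal genes were lost and 9.09% gained. In 14837T, 5 of 9 were called at 1 copy (Trp63, Trp73, Mdm2, Bbc3 and Pmaip1) and 1 was called at 3 copies (Fas), where 28.8% of all genes were lost and 21.4% gained. The median log2 of the 9 genes was -0.53 in 15376T and -0.38 in 14837T, against -0.023 and -0.045 over all genes. Trp63, Trp73, Bbc3 and Pmaip1 were lost in both lines, and 22.4% of all genes were. Trp53 and Mdm4 were at 2 copies in both. The call differed between the lines for 3 of 9 genes (Mdm2, Bax and Fas), a share close to the 29.3% of all genes. These calls depend on the threshold. At an absolute log2 of 0.5 the call differed for 4 of 9 genes (31.3% of all genes), which were Trp63, Bax, Bbc3 and Pmaip1, each called lost in 15376T only, while Mdm2 and Fas were called in neither line and Trp73 alone was lost in both. The 9 genes lie on 8 chromosomes and in 9 segments per line. They are few, were chosen with earlier results in view, and Bax and Bbc3 share chromosome 7, so these shares describe the genes and nothing more.

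**Figure D1:**
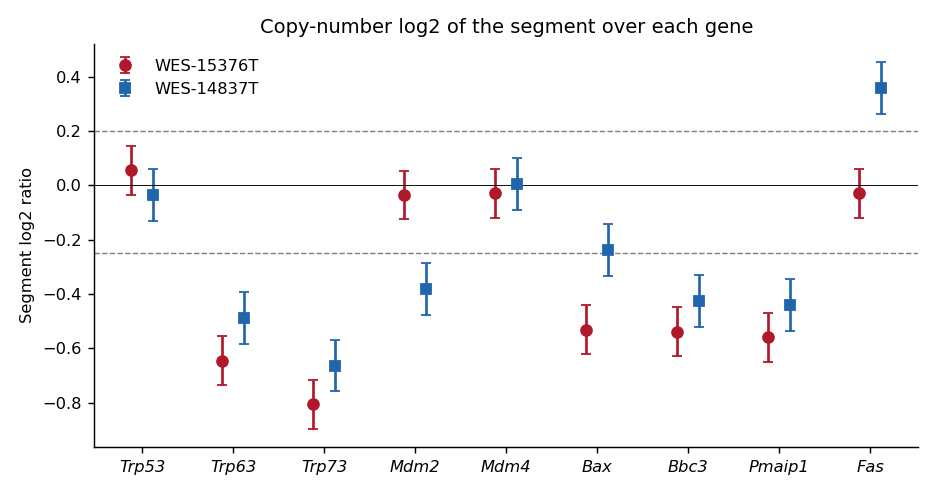
Segment log2 ratio (y axis) over each of the 9 genes in WES-15376T (circles) and WES-14837T (squares). Bars are the SD of log2 among segments called at 2 copies in the line, and dashed lines are the thresholds of -0.25 and 0.2. Trp63, Trp73, Bbc3 and Pmaip1 lie below the lower line in both lines, and Fas alone lies above the upper line, in WES-14837T.

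Trp53, the gene with the floxed allele, kept a log2 near 0 in both lines. It lies at chr11:69580348-69591873 of GRCm38. Its log2 was 0.056 in 15376T and -0.036 in 14837T, a difference of 0.092 that is within the yardstick of 0.13. In 15376T the segment had 11932 bins at a depth of 49.3, ran from 3133019 to 99620437 and named 1242 genes. In 14837T it had 7123 bins at a depth of 47.5, ran from 3133019 to 71169835 and named 713 genes. It ended 1.58 Mb beyond Trp53, at a segment of 19 bins with Nlrp1b that was called at 0 copies. The log2 of that segment was -8.74, yet it still had a depth of 10.9, and Nlrp1b one of 12.7 over 9 bins. The gene tables, which give a gene's own depth, list only genes with an absolute log2 of 0.40 or more, and Trp53 is not among them. A loss of a few exons, such as the floxed part, was therefore not detectable. The nearest listed gene with at least 5 bins was Rptor in 15376T, 50.3 Mb beyond Trp53, and Nlrp1b in 14837T.

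The BAF of the segment that holds Trp53 differed between the lines. The value was 1 over the Trp53 segment of 15376T and 0.027 over that of 14837T. In 14837T, the 5 segments that follow, from 71172030 to 89088733, had a BAF between 0.97 and 1. This run of 17.9 Mb begins 1.58 Mb beyond Trp53, and 4 of its 5 segments were called at 2 copies, with log2 values between -0.11 and 0.093. From 89089234 onward the BAF of 14837T was 0.027 to 0.056. A BAF of at least 0.9 was found in 4 of 158 autosomal segments with a BAF in 15376T and in 6 of 193 in 14837T. They covered 4.40% and 0.780% of the autosomal length with a BAF. Chromosome 11 held 1 of the 4 and 5 of the 6. The segment on chromosome 2 with Cwc22 was 1 of them in each line, and the other 2 of 15376T lie on chromosome 6. A segment has 1 BAF for all of its variant sites. The number and place of these sites are not in the tables, so the value of 1 over 96.5 Mb in 15376T does not show where along the segment such alleles lie, nor whether any lies in Trp53. That segment also spans the whole run from 71172030 to 89088733 that had a high BAF in 14837T. Whether the lines differ in BAF at Trp53 itself, or only in where their segments end, cannot be told from these values.

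**Figure D2:**
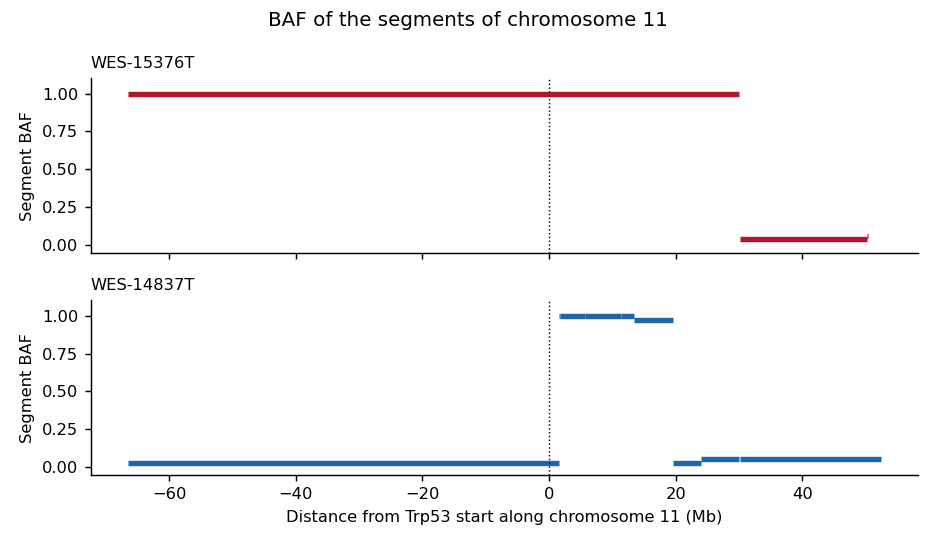
BAF (y axis, 0 to 1) of each segment of chromosome 11 against the distance from the start of Trp53 (x axis, Mb) in WES-15376T (upper panel) and WES-14837T (lower panel). The dotted line marks Trp53, which lies inside the long segment with a BAF of 1 in WES-15376T and before the run with a BAF of 0.97 to 1 in WES-14837T.

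Among the other genes, BAF ranged from 0.045 (Mdm4) to 0.36 (Bbc3) in 15376T and from 0.029 (Bax) to 0.18 (Bbc3) in 14837T, and it was blank for Trp73 in both. All of these lay below the value of Trp53 in 15376T and above it in 14837T. The length-weighted autosomal median was 0.077 in 15376T and 0.061 in 14837T. Bbc3 stood highest after Trp53 in 15376T, where 93.3% of the autosomal length with a BAF had one no higher. The minor allele was called at 0 copies for each of the 8 genes with a BAF in each line, as in 140 of 160 autosomal segments of 15376T and 185 of 193 of 14837T, so this column did not set the genes apart.

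The other genes of the family were lost in both lines. Trp63, the regulator of epithelial stem cells, lies at chr16:25683763-25892088. Its log2 was -0.65 in 15376T and -0.49 in 14837T. The borders of its segment were identical in the lines, from 24608101 to 98082498, and 100% of the covered length of chromosome 16 was called lost in each. The gene's own depth over 19 bins was 29.4 in 15376T and 34.2 in 14837T. The own depths differed by -0.22 on the log2 scale and the segment log2 values by -0.16, so the gene's own reads and its segment differed between the lines by similar amounts. Its nearest listed neighbors, Tprg and P3h2, had depths of 19.7 and 35.7 in 15376T and of 25.4 and 39.2 in 14837T. The nearest border lay 1.08 Mb before Trp63, and the segment beyond it was also called at 1 copy in both lines (-0.54 and -0.40).

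Trp73 had the lowest log2 of the 9 genes in both lines. It lies at chr4:154056249-154139875, near the distal end of the chromosome. Its log2 was -0.81 in 15376T and -0.66 in 14837T, and 0.119% and 0.143% of all genes had a value as low. The segments were short, from 152699637 to 154893410 with 17 named genes in 15376T and from 152412748 to 154883723 with 20 in 14837T. Among autosomal segments called at 1 copy, they ranked 1 of 40 and 2 of 68 from the lowest. The segments on either side were also called at 1 copy, and the Trp73 segment minus the mean of these neighbors was -0.26 in 15376T and -0.29 in 14837T. The differences between the lines of -0.16 for Trp63 and -0.14 for Trp73 were above the yardstick of 0.13, but segments called at 1 copy differed alike, with a median log2 of -0.52 in 15376T and -0.39 in 14837T.

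The read depth of the Trp73 segment, 19.1 in 15376T and 22.0 in 14837T, was lower than that of its neighbors (29.3 and 35.4). Trp73 itself had a depth of 15.5 and 16.6 over 18 bins. Its nearest listed neighbors on both sides, Ccdc27 and Wrap73, had depths of 25.6 and 25.1 in 15376T and of 31.1 and 32.2 in 14837T. The low depth was therefore present in both lines at nearly the same place. The depth of wild-type tail in these bins was not analysed here, so a loss in both lines and a weak capture of these bins cannot be told apart. Relative to segments called at 2 copies, the depth of the Trp73 segment was lower by far more than its log2, at -1.27 and -1.11 on the log2 scale.

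**Figure D3:**
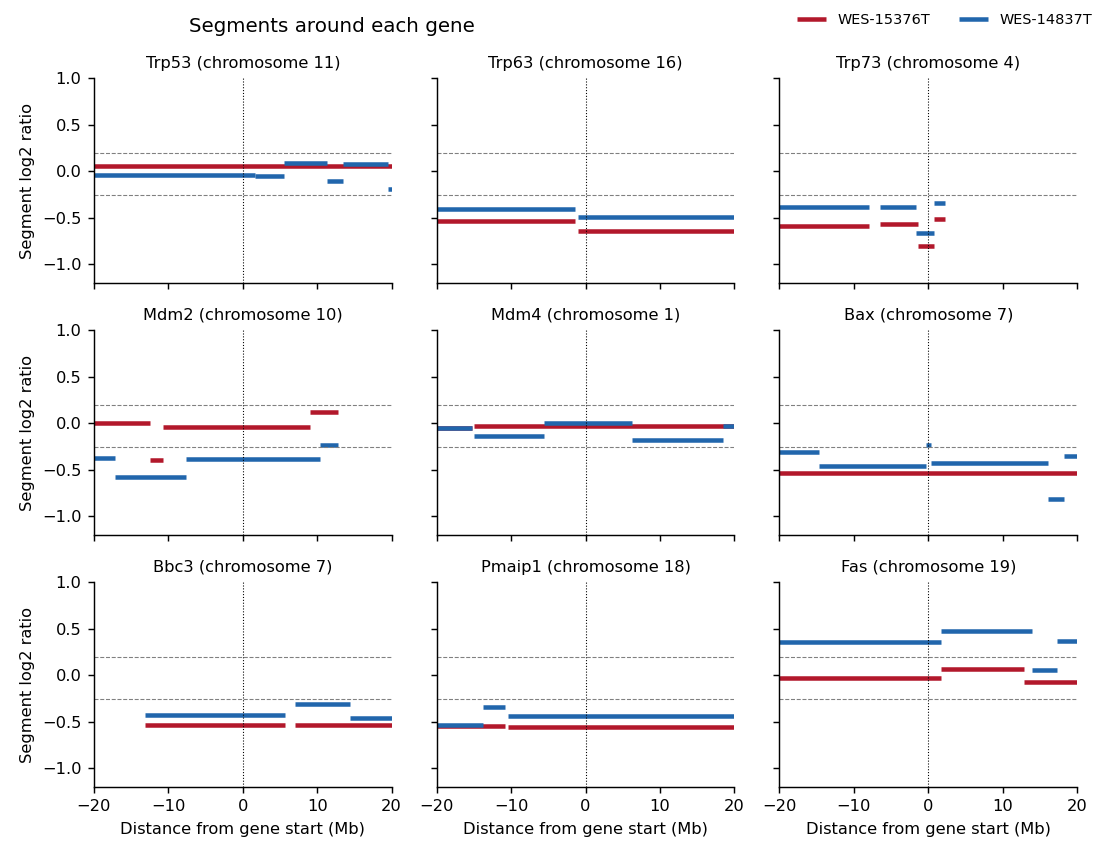
Segment log2 ratio (y axis) against the distance from the start of each gene (x axis, Mb) in WES-15376T (red) and WES-14837T (blue), with the thresholds of -0.25 and 0.2 as dashed lines. Trp73 sits in a short dip of both lines and Bax in a short step of WES-14837T. The segment with a log2 of -8.74 and a depth of 10.9 beside Trp53 in WES-14837T lies below the axis.

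The Mdm genes behaved differently from each other. Mdm2 lies at chr10:117688875-117710758. Its log2 was -0.035 in 15376T, called at 2 copies, and -0.38 in 14837T, called at 1 copy. The difference of 0.35 was 2.65 times the yardstick of 0.13, and 18.8% of all genes differed by more. In 15376T the segment ran from 106937363 to 126725993, after a short segment called at 1 copy. In 14837T it ran from 109999918 to 128029864, after a segment with a log2 of -0.58. Of the covered length of chromosome 10, 41.3% was called lost in 14837T and 1.38% in 15376T. Mdm4 lies at chr1:132986105-133030587. Its log2 was -0.029 in 15376T and 0.0052 in 14837T, and it had the smallest difference of the 9 genes. Its segment was long in 15376T, with 620 named genes, and shorter in 14837T, with 142, where the segments on both sides were also called at 2 copies (-0.14 and -0.18). The depth over Mdm4 was 45.6 in 15376T and 47.9 in 14837T, and that over Mdm2 was 44.9 and 37.1. Neither gene was called gained in either line.

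Bbc3 and Pmaip1, which encode activators of mitochondrial cell death, were lost in both lines. Bbc3 lies at chr7:16308398-16318334, in a segment from 3108994 to 21955783 in both lines. Its log2 was -0.54 in 15376T and -0.42 in 14837T. Pmaip1 lies at chr18:66458604-66465558, in a segment from 56086410 to 90540246 in both lines. Its log2 was -0.56 in 15376T and -0.44 in 14837T. The differences of -0.11 and -0.12 were within the yardstick of 0.13. With Trp63 these are the 3 of 9 genes whose segments had identical borders in the lines. Of the 183 autosomal segments of 15376T, 7 had such borders. A count of genes and a count of segments cannot be compared, since these segments name 441 (Trp63), 311 (Bbc3) and 203 (Pmaip1) genes. The share of all genes that lie in segments with identical borders was not computed.

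The own depth of Bbc3 and Pmaip1 fell further apart between the lines than their segments did. Bbc3, with 2 bins, had a depth of 11.6 in 15376T and 22.6 in 14837T. Pmaip1, also with 2 bins, had 17.2 and 31.3. The log2 ratio of own depths was -0.96 for Bbc3 and -0.86 for Pmaip1, and minus the difference of segment log2 it was -0.85 and -0.74. Over the 253 genes with 2 bins that are listed in both lines, this remainder averaged -0.10 (SD 0.24), and Bbc3 ranked 1 and Pmaip1 3 of 253 from the lowest. Own depth was not normalized between the libraries, whereas segment log2 is a ratio to a reference. The remainder can therefore carry a difference in the depth of the libraries. Against the ratio of segment depths in place of the log2 difference, chosen after the data were seen, it was -0.75 for Bbc3 and -0.67 for Pmaip1. By this measure they ranked 5 and 7. Among the 1220 genes with 1 to 3 bins they ranked 11 and 21. These ranks were looked up after the values were seen and carry no test. In 15376T, Bbc3 had a lower depth than each of 86 listed neighbors within 5 Mb with at least 5 bins, whose median was 31.1, and Pmaip1 than each of 50, whose median was 36.4. In 14837T, 2 of 86 neighbors lay below Bbc3 and 12 of 50 below Pmaip1. With neighbors of any number of bins, 2 of 179 lay below Bbc3 and 2 of 78 below Pmaip1 in 15376T, and 11 of 179 and 21 of 78 in 14837T. Few bins and low depth went with this pattern, and their part in it was not tested. Among the 68 genes with 2 bins and a depth in 14837T no higher than that of Pmaip1, Bbc3 ranked 1 and Pmaip1 2 from the lowest (SD 0.29). The cut is the depth of Pmaip1 itself, which enters its remainder, and the depth in 15376T was not matched. These 2 ranks therefore do not bear on the part of low depth. The nearest listed neighbors of Bbc3, Ccdc9 and Sae1, had depths of 29.1 and 31.1 in 15376T and of 28.9 and 35.7 in 14837T. Those of Pmaip1, Ccbe1 and Gnal, had 18.5 and 37.5 in 15376T and 22.2 and 40.2 in 14837T. Trp63 and Trp73, with 19 and 18 bins, showed a remainder of -0.065 and 0.046, where the 617 genes with 15 bins or more averaged -0.084 (SD 0.12).

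**Figure D4:**
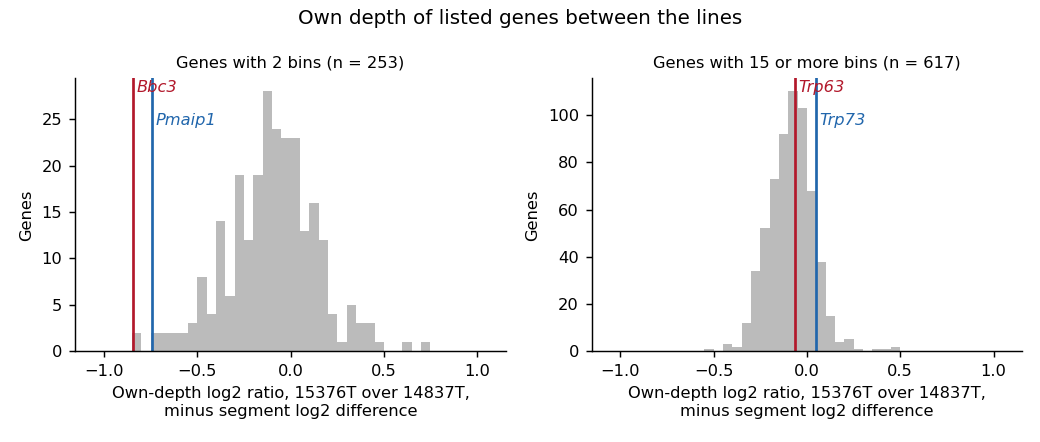
Number of genes (y axis) by the log2 ratio of own depth in WES-15376T over WES-14837T minus the difference of segment log2 (x axis), for genes with 2 bins (left) and with 15 bins or more (right) listed in both lines. Bbc3 (-0.85) and Pmaip1 (-0.74) lie in the left tail of 253 genes, while Trp63 and Trp73 rank 338 and 543 of 617 from the lowest.

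Bax, the pore-forming protein of apoptosis, had a different call in the lines. It lies at chr7:45461695-45466903. Its log2 was -0.53 in 15376T, called at 1 copy, and -0.24 in 14837T, called at 2 copies. The call in 14837T missed the loss threshold by 0.012, which is far less than the yardstick. Taken from segment depth relative to segments at 2 copies, the value was -0.34, past that threshold. The segment there was short, from 45121731 to 45820084 with 62 named genes, and was the only 1 of 21 segments of chromosome 7 in that line that was not called lost. The segments beside it had log2 values of -0.46 and -0.43. The depth of the Bax segment was 0.14 above that of its flanks on the log2 scale. In 15376T, where 100% of the covered length of chromosome 7 was called lost, the 36 listed genes of the same interval with at least 5 bins had a depth of 31.8, and the 149 of the flanks 32.2, a difference of -0.015. The Bax segment of 14837T lay 0.22 and 0.19 above its neighbors in log2, where the yardstick of that line was 0.095. The depths of 14837T are those of segments and the depths of 15376T those of listed genes. Whether 15376T has a like step was therefore not tested on the same measure. Bax itself had an own depth of 29.4 over 5 bins in 15376T, and its 129 listed neighbors within 5 Mb had a median of 29.1. Bax is not listed in the gene table of 14837T, so its own depth there was not read.

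Fas was the only 1 of the 9 genes called gained. It lies at chr19:34290647-34327775. Its log2 was -0.030 in 15376T, called at 2 copies, and 0.36 in 14837T, called at 3 copies. The difference of -0.39 was the largest of the 9 genes in absolute size, and 14.3% of all genes differed by more. The segments ran from 12469472 to 35959787 in 15376T and from 11096882 to 35960437 in 14837T. Gains covered 94.2% of chromosome 19 in 14837T and 15.8% in 15376T, so Fas lay inside the gained part in 14837T and outside it in 15376T. In 15376T the segment before it was gained (0.42) and the one after it was at 2 copies (0.065). In 14837T both neighbors were gained (0.50 and 0.48). The depth over Fas was 46.8 in 15376T and 65.2 in 14837T. In both lines the border after Fas lay 1.63 Mb away.

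A list of 44 other genes of the p53 pathway showed where the 9 genes stood. In 15376T, 14 of 44 were called lost (31.8%) and 5 gained (11.4%). In 14837T, 15 of 44 were called lost (34.1%) and 6 gained (13.6%). The call differed between the lines for 12 of 44 (27.3%). Apart from fewer gains in 14837T, these shares lie near those of all genes. The median log2 of the list was -0.029 in 15376T and -0.047 in 14837T.

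Of the 10 genes that run cell death, 5 were lost in 15376T and 6 in 14837T, where 30.1% and 28.8% of all genes were. In both lines 5 were lost, where 22.4% of all genes were. Casp9 and Trp53inp1 on chromosome 4 share a segment in 15376T, as do Pidd1 and Aen on chromosome 7. Casp9, the caspase of the apoptosome, had log2 values of -0.59 and -0.39 in 15376T and 14837T. Tnfrsf10b, a death receptor, had -0.55 and -0.41. Pidd1 and Aen, on chromosome 7 with Bax and Bbc3, were lost in both lines, as was Trp53inp1. Apaf1, which assembles the apoptosome, was at 2 copies in 15376T (-0.00033) and at 1 in 14837T (-0.37). It lies on chromosome 10 with Mdm2, which had the same pair of calls. Bid was gained in 15376T (0.33) and at 2 copies in 14837T (-0.045).

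Among the 11 kinases and activators of p53, 5 were lost in 15376T (45.5%) and 3 in 14837T (27.3%), where 30.1% and 28.8% of all genes were. Atm and Atr, the kinases that signal DNA breaks and stalled replication, were lost in 15376T (-0.53 and -0.61) and at 2 copies in 14837T (-0.029 and -0.058), and both lie on chromosome 9. The name of Atm appears in 2 segments of 15376T, and the value is that of the segment over its midpoint. Cdkn2a, whose p19Arf product restrains Mdm2, was lost in both lines (-0.59 and -0.39), together with Prkdc and Crebbp. These 2 share 1 segment of chromosome 16 in each line, so they are not separate losses. Kat5 was gained in both. Ep300 was at 2 copies in 15376T (0.0064) and at 3 in 14837T (0.31). Of the 4 negative regulators, 1 was lost in both lines, where 22.4% of all genes were. It was Usp7, a deubiquitinase that acts on Mdm2 and p53, in the same segment as Prkdc and Crebbp. Ppm1d, a phosphatase on chromosome 11, was at 2 copies in both and had a BAF of 1 in 15376T and 0.97 in 14837T.

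Of the 15 targets for arrest and repair, 3 were lost in 15376T (20%) and 5 in 14837T (33.3%), where 30.1% and 28.8% of all genes were. Gains were called for 2 in 15376T (13.3%) and 3 in 14837T (20%), where 9.09% and 21.4% of all genes were gained. Plk3, Sfn and Sesn2 were lost in both and share 1 segment of chromosome 4 in each line, which also holds Casp9 and Cdkn2a, whereas Plk2 and Polk on chromosome 13 were lost only in 14837T (-0.38 for each). Cdkn1a, which encodes the cell-cycle inhibitor p21, was at 2 copies in 15376T (0.074) and gained in 14837T (0.34), and Rrm2b had the same pair of calls. Gadd45a was gained in 15376T (0.30) and at 2 copies in 14837T. Zmat3 was the 1 target gained in both lines, with 0.74 in 15376T and 0.43 in 14837T. The share of all genes gained in both lines was not computed. Of the 4 metabolic targets, 1 was gained in each line, Tigar in 15376T (0.33) and Sco2 in 14837T (0.31), where 9.09% and 21.4% of all genes were. Gls2 was at 2 copies in both although its log2 differed by 0.35. The pathway genes on other chromosomes whose 2 log2 values lay nearest to those of Trp53 were Ddb2, Hipk2 and Trp53bp1, at a Euclidean distance of 0.018, 0.024 and 0.050 over the 2 lines.

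**Figure D5:**
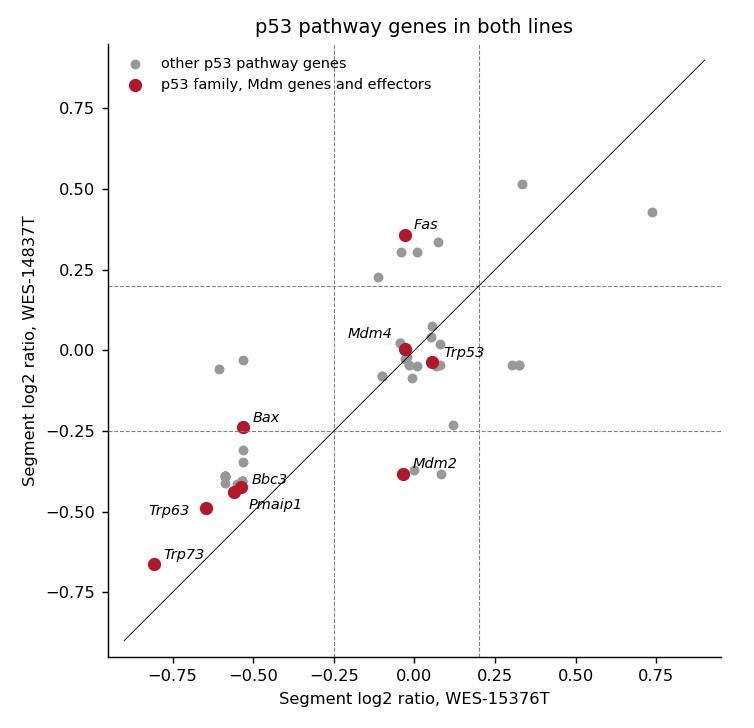
Segment log2 ratio in WES-15376T (x axis) and WES-14837T (y axis) of the 9 genes (red) and of 44 other p53 pathway genes (grey), with the call thresholds as dashed lines and the line of equal values. Mdm2 and Bax lie on opposite sides of the diagonal, and Trp73 lies farthest toward the lower left.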

How the data were processed

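Genomic DNA of the lines was captured with a human exome kit, although the DNA is from mouse (the methods name NimbleGen SeqCap, the labels Agilent SureSelect), and sequenced by the authors, as 1 library per line. Per the labels the genome build was mm10. The aligner, the copy-number reference and the filters are not given in the sources used here. The authors deposited per segment a log2 ratio of coverage, the BAF as a fraction, the depth as an unnormalized coverage signal, integer copy numbers and a bin weight score, and per gene the same with its own depth and bins for genes with an absolute log2 of at least 0.40. The tool is not named. The calls followed the default thresholds of CNVkit (-1.1, -0.25, 0.2 and 0.7) with 0 exceptions among segments at or below a log2 of 0.7.

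Genes were matched by symbol to the gene column, and their positions are those of RefSeq (GRCm38.p6). Starts are counted from 1. Values, ranks and shares were computed with Python 3.11.15, numpy 2.4.6 and pandas 2.3.3. No test was possible with 1 library per line. The steps were checked on simulated data. The 9 genes, the pathway list and the comparisons were chosen with earlier results of these data known. Named were all 9 genes, their nearest listed neighbors and borders, and pathway genes called other than 2 copies in a line or differing by over 0.3, with Ppm1d added after its BAF was seen. Alternatives were calls at 0.3 or 0.5, recentred log2, segment depth, RefSeq positions, other neighbors, and, added after the data were seen, the ratio of segment depths. RNA-seq and tail samples were not analysed here. A further allele of the mice is not reported here.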

Additional observations from a re-analysis of the deposited data

How the results depend on the processing

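A stricter call, an absolute log2 of at least 0.5, moved the counts most. Of the 9 genes, 1 was then called lost in 14837T (Trp73) and 0 gained. The call then differed between the lines for 4 of 9 genes (Trp63, Bax, Bbc3 and Pmaip1) in place of 3 (Mdm2, Bax and Fas). Of the 44 pathway genes, 0 were lost in 14837T, 1 was gained in 15376T and 1 in 14837T. Over all genes, 3.05% were then lost in 14837T, and 2.48% were gained in 15376T and 4.3% in 14837T. Losses in 15376T stayed at 5 of the 9 and 14 of the 44 genes, where 27.9% of all genes were lost. At 0.3 and with log2 recentred on the autosomal median, all 10 counts of called genes stayed within 1.5 times. Bax remained uncalled in 14837T under each of these. Segment depth in place of log2 moved 5 of 27 values beyond the yardstick, among them Bax in 14837T, to -0.34, below the loss threshold. RefSeq positions and recentring moved none of the values beyond the yardstick. Other sets of neighbors moved no own-depth value by more than the SD of log2 depth among its neighbors, a wider scale. Some of these moves were larger than the yardstick. The value of Trp63 in 14837T went from -0.20 to -0.042 with neighbors within 2 Mb, where that SD was 0.58 for those within 5 Mb. Values near 0 could change sign, such as the log2 of Mdm4 in 15376T, to 0.011 when recentred, and the own depth of Bax against its neighbors in 15376T, from 0.016 to -0.13 with neighbors of any number of bins. No paired analysis was possible because no result comes from a test, with 1 exome library per line. The tables hold no spread between bins, so no interval was given for any depth.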
